A study of Mus musculus with 5 samples.

Results

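In mouse embryonic stem cells (ESCs) given L-proline, 691 autosomal islands of histone H3 trimethylated at lysine 36 (H3K36me3) appeared where untreated cells had no H3K36me3 island but had an island of H3 trimethylated at lysine 9 (H3K9me3). They were selected by position alone. A chosen island overlapped no H3K36me3 island of untreated cells and overlapped at least 1 bp of an H3K9me3 island of untreated cells. The treated cells had 16363 autosomal H3K36me3 islands, of which 3330 (20.4%) overlapped no H3K36me3 island of untreated cells and are called new here. The 691 were 20.8% of these new islands (95% interval 19.4 to 22.2), a share set by the rule. With the list of treated cells for each mark cut to the number of islands in that of untreated cells, keeping those with the most tags, 305 islands in place of 691 met the rule, and their median width was 7.4 kb in place of 4.8 kb. They were split by whether an H3K9me3 island of treated cells still overlapped them. In 507 it did, and these are called dual-marked. In the other 184 it did not, and these are called H3K36me3-only.

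H3K9me3 is laid down by methyltransferases such as SUV39H1 and SETDB1 and is the mark of silent chromatin. In mouse ESCs it is known for the silencing of endogenous retroviruses, where SETDB1 is brought in by TRIM28 and KRAB zinc finger proteins. H3K36me3 is written by SETD2, which travels with elongating RNA polymerase II, so the mark lies over the bodies of transcribed genes. The marks are therefore usually found apart, although zinc finger gene clusters are a known place where both occur.

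The cells were the wild-type TBV2 line of strain 129/SvP, a single line, grown with leukemia inhibitory factor and without non-essential amino acids. The untreated group was kept for 5 days without L-proline and the treated group for 5 days with 500 µM L-proline, which gave the L-proline-induced cells (PiCs). Each mark was mapped by ChIP-seq in 1 library per condition. No difference between the conditions therefore had a replicate check, no test was made, and intervals are 95% intervals over islands that cover counting error only. Autosomal islands numbered 17697 for H3K9me3 in ESCs, 24422 for H3K9me3 in PiCs, 11971 for H3K36me3 in ESCs and 16363 for H3K36me3 in PiCs, and held 1440142, 3294772, 25663212 and 15594739 tags in that order. These are sums over called islands, so library depth is unknown, and whether the unequal tag yields bear on which islands were called was not tested. An input library of untreated cells was not analysed here, so sites that gather tags without an antibody could not be set apart. Positions refer to build mm9. Genes were not assigned, for want of an annotation on that build. Whether both marks of a site sat on the same chromatin fibres cannot be told from separate libraries.

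H3K36me3 islands common to both conditions give a reference for these numbers, as a description, since the rule itself chose on this overlap. Of 13033 shared PiC islands, 1247 (9.57%, interval 9.07 to 10.1) overlapped ESC H3K9me3, against the 20.8% of new islands. The shared islands had a median width of 10.6 kb (10.4 to 11), and the 691 a median of 4.8 kb (4.4 to 5). Shares are therefore also given by width. Among islands of 2 to 4 kb, 199 of 954 new islands (20.9%) and 74 of 1270 shared islands (5.83%) lay over ESC H3K9me3. Among those of 10 to 20 kb the numbers were 64 of 339 (18.9%) and 370 of 3607 (10.3%). Seen from the other mark, 740 of the 17697 autosomal ESC H3K9me3 islands (4.18%) had one of the 691 over them. Most of the 691 (634, or 91.8%) touched a single ESC H3K9me3 island and 57 touched more. Few shared a target: 20 of the 691 lay on an ESC H3K9me3 island that another of them also touched.

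At the edge of the rule, 4 of the 691 overlapped ESC H3K9me3 by a single window of 200 bp, and 3 other new islands missed it by a gap of 200 bp. Another 56 new islands, these 3 included, had ESC H3K9me3 within 2 kb without touching it. The smallest gap to ESC H3K36me3 among the 691 was 200 bp, in 1 island, and the smallest overlap with it among shared islands over ESC H3K9me3 was 600 bp, in 2.

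The dual-marked islands lay under H3K9me3 for most of their length, and more fully so in PiCs than in ESCs. The class was chosen by its PiC H3K9me3, so the latter is in part set by the split. Over all 691 islands the order was the reverse, with 52.7% of the summed length under ESC and 46.5% under PiC H3K9me3. This order too is in part set by selection, since all 691 were chosen for their ESC H3K9me3. The rule left out 156 new islands over PiC H3K9me3 alone, with 0.412 Mb under it. The median width of the dual-marked islands was 4.2 kb (4 to 4.4), and a median of 80% of that length (75 to 85.7) lay under ESC H3K9me3. In PiCs the median was 100% (95.2 to 100). Of the 507, 167 (32.9%) lay wholly inside an ESC H3K9me3 island, 266 (52.5%) wholly inside a PiC H3K9me3 island, and 445 (87.8%) had at least 50% of their length under PiC H3K9me3. In most of these places the new H3K36me3 was a short stretch within the H3K9me3 island or reaching past its edge. In sum they spanned 2.545 Mb, of which H3K9me3 covered 1.587 Mb (62.4%) in ESCs and 1.890 Mb (74.3%) in PiCs. By island, 262 had more bases under H3K9me3 in PiCs than in ESCs, 171 had the same number and 74 had fewer. With the H3K36me3-only islands counted in, 258 of the 691 had fewer. Of these, 184 were H3K36me3-only islands, which have fewer by definition.

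**Figure D1:**
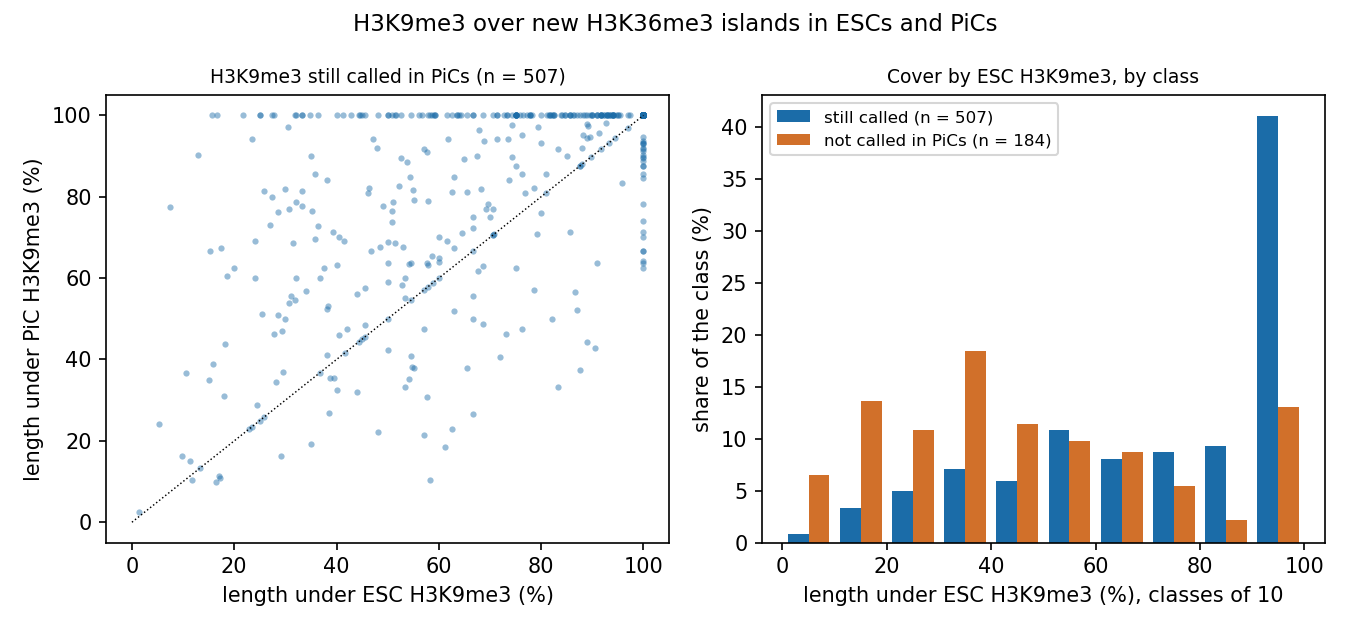
Left, share of each dual-marked island's length under H3K9me3 in ESCs (x axis, %) and in PiCs (y axis, %), 1 point per island, with the line of equal cover dotted. Right, share of the dual-marked (blue) and H3K36me3-only islands (orange) in each class of cover by ESC H3K9me3 (%); dual-marked islands pile up at 90% and above, and H3K36me3-only islands lie mostly below 50%.

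The H3K36me3-only islands were wider and less fully covered. Their median width was 6.9 kb (6 to 7.6) and the median share under ESC H3K9me3 was 40% (36.4 to 45). Only 17 of the 184 (9.24%) lay wholly inside an ESC H3K9me3 island, whereas 84 (45.7%) contained the H3K9me3 island or islands whole and 83 (45.1%) overlapped an edge. Of the 507 dual-marked islands, 189 (37.3%) also contained their ESC H3K9me3 whole and 151 (29.8%) overlapped an edge. A width of 10 kb or more was reached by 43 islands of this class (23.4%) and by 33 dual-marked ones (6.51%). PiC H3K9me3 was rarely close by, though the class was chosen to have none over it and no reference distance from other new islands is given. The nearest PiC H3K9me3 island was a median of 88.8 kb away (67.8 to 112). In 10 of the 184 it lay within 2 kb, and in 6 it remained on the same ESC H3K9me3 island outside the new H3K36me3.

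The mean cover around the island centres showed the same division. At the centre, ESC H3K9me3 covered 79.3% of dual-marked and 47.3% of H3K36me3-only islands, and PiC H3K9me3 covered 87.6% of the former and, by definition, none of the latter. At 10 kb from the centre, outside most of the chosen islands, PiC H3K9me3 covered 15.9% of the dual-marked sites and 2.45% of the H3K36me3-only sites, while ESC H3K9me3 covered 10.7% and 7.61%. PiC H3K36me3 at that distance covered 12.3% and 29.2%. At 10 kb the dual-marked sites thus had more H3K9me3 than H3K36me3 cover in PiCs and the H3K36me3-only sites the reverse, whereas at 20 kb H3K36me3 was the larger at both, with 13.1% against 10.6% and 32.1% against 2.85%. In PiC cover, the surroundings of the H3K36me3-only sites were close to those of the 2639 new islands without ESC H3K9me3. Around the latter, PiC H3K36me3 and H3K9me3 covered 30.7% and 1.98% at 10 kb, and 31.2% and 2.62% at 20 kb. In ESC H3K9me3 cover the surroundings differed. It was 7.61% at 10 kb and 7.07% at 20 kb around the H3K36me3-only sites. Around the 2639 islands, chosen to have none over them, it was 2.19% and 2.37%.

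**Figure D2:**
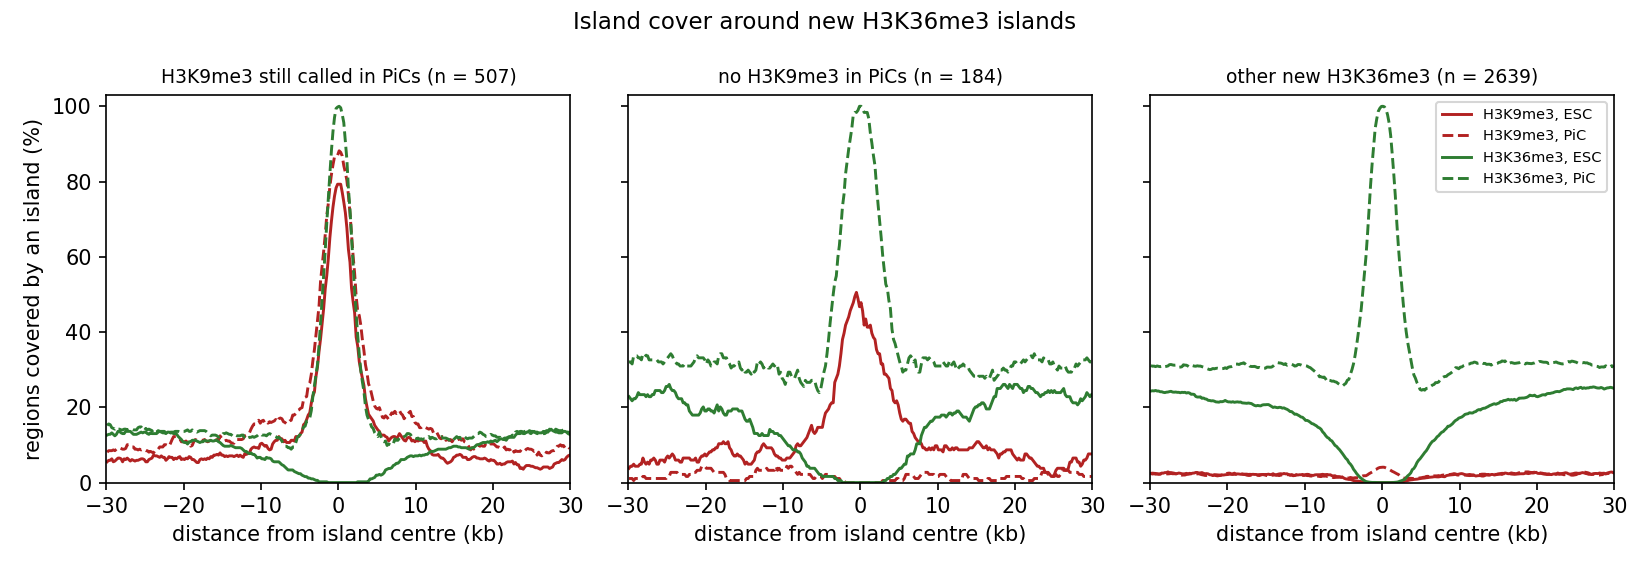
Share of sites covered by an island of each list (y axis, %) against distance from the centre of the new H3K36me3 island (x axis, kb), in steps of 200 bp, for dual-marked islands, H3K36me3-only islands and the other 2639 new islands. Solid lines are ESCs, dashed lines PiCs, red H3K9me3 and green H3K36me3; at the centre the red dashed line is at 87.6% on the left and at 0 in the middle.

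Distance from existing H3K36me3 separated the classes too. The nearest ESC H3K36me3 island was a median of 63.2 kb (43.4 to 84.8) from a dual-marked island and 20 kb (14.6 to 26.8) from an H3K36me3-only island. For the 2639 other new islands, of which 156 (5.91%) overlapped a PiC H3K9me3 island, the median was 15.4 kb (14.2 to 16.8), and 11.4% of these had ESC H3K36me3 within 2 kb. Within that distance, where a new island could be an outgrowth of an existing domain, lay 19 dual-marked islands (3.75%) and 15 H3K36me3-only islands (8.15%). Another PiC H3K36me3 island lay within 10 kb of 33.5% of the dual-marked islands (29.4 to 37.8), 62.5% of the H3K36me3-only islands (55.1 to 69.5) and 65.6% of the other new islands (63.7 to 67.4).

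The farther a new island lay from ESC H3K36me3, the more often it lay over ESC H3K9me3. Of 790 new islands less than 5 kb away, 88 (11.1%, interval 9.03 to 13.5) did. The share was 17.3% from 5 to 20 kb, 20.1% from 20 to 50 kb and 25.8% from 50 to 200 kb. Among the 333 new islands at 200 kb or more it reached 45% (39.6 to 50.6), or 150 islands, and 146 of these 150 (97.3%) were dual-marked. Less than 5 kb away the dual-marked share was 51.1% (40.2 to 61.9). How much ESC H3K9me3 lay at each distance, and how much of it was found again in PiCs, was not computed. Whether these shares exceed that background was not tested.

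**Figure D3:**
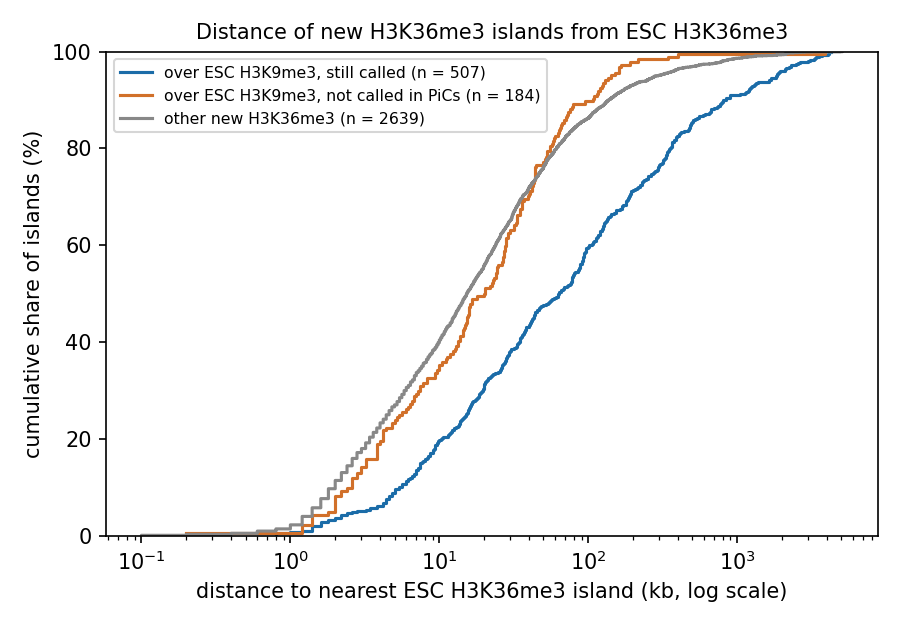
Cumulative share of new H3K36me3 islands (y axis, %) by distance to the nearest ESC H3K36me3 island (x axis, kb, log scale, islands that abut one drawn at 0.1 kb). The dual-marked curve (blue) runs to the right of the others, with a median of 63.2 kb; the H3K36me3-only (orange) and other new islands (grey) have medians of 20 and 15.4 kb.

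H3K9me3 under the 691 was found again in PiCs slightly less often than ESC H3K9me3 as a whole. It was still called in PiCs over 73.4% of them (interval 69.9 to 76.6). Of the 740 ESC H3K9me3 islands beneath, 544 (73.5%, 70.2 to 76.7) overlapped a PiC H3K9me3 island, against 78.9% (78.3 to 79.5) of all autosomal ESC H3K9me3 islands. Among ESC H3K9me3 islands with no H3K36me3 in either condition the figure was 82.6% (82 to 83.2), and among the 1428 that already touched H3K36me3 in ESCs it was 44.7% (42.1 to 47.3). Counted over H3K36me3 islands, 44.7% of the 1247 shared islands over ESC H3K9me3 still had H3K9me3 in PiCs. The value for places with new H3K36me3 thus lay between that of places without the mark and that of places that had it beforehand. These groups were not matched for the tag density of ESC H3K9me3, with which its recovery in PiCs varied, as given below. Whether the order holds at equal density was not tested for all of them.

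The H3K9me3 islands under the classes differed in tag density in the untreated cells. Under dual-marked islands ESC H3K9me3 held a median of 31.3 tags per kb (29.7 to 32.7), above the list median of 25.6. Under H3K36me3-only islands it held 15.6 (15 to 16.5). The ESC H3K9me3 density exceeded the list median under 376 of the 507 dual-marked islands (74.2%) and under 26 of the 184 H3K36me3-only islands (14.1%). Widths differed little, with a median of 3.4 kb (3.2 to 3.6) for the ESC H3K9me3 islands under the first class and 3.6 kb (3.4 to 3.8) under the second. In the PiC list, H3K9me3 over the dual-marked islands reached a median density of 43.3 (42.1 to 45.8), where the whole list had 33.3.

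New H3K36me3 was found most often over the sparsest and over the densest ESC H3K9me3. ESC H3K9me3 islands were ranked by tags per kb and cut into 10 equal density classes, and those free of ESC H3K36me3 were counted. In the sparsest density class (9.2 to 15.4 tags per kb) 100 of 1314 islands (7.61%, interval 6.23 to 9.18) lay under one of the 691. The share fell to 2.96% (2.19 to 3.89) in density class 3 and rose again to 6.3% (5.17 to 7.6), or 102 of 1619, in the densest. The ends of this range belonged to different classes. In the sparsest density class 92 of the islands lay under H3K36me3-only islands and 8 under dual-marked ones, while in the densest 4 and 99 did. The islands counted had a median width of 3.8 kb in the sparsest density class and 1.2 kb in the densest.

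**Figure D4:**
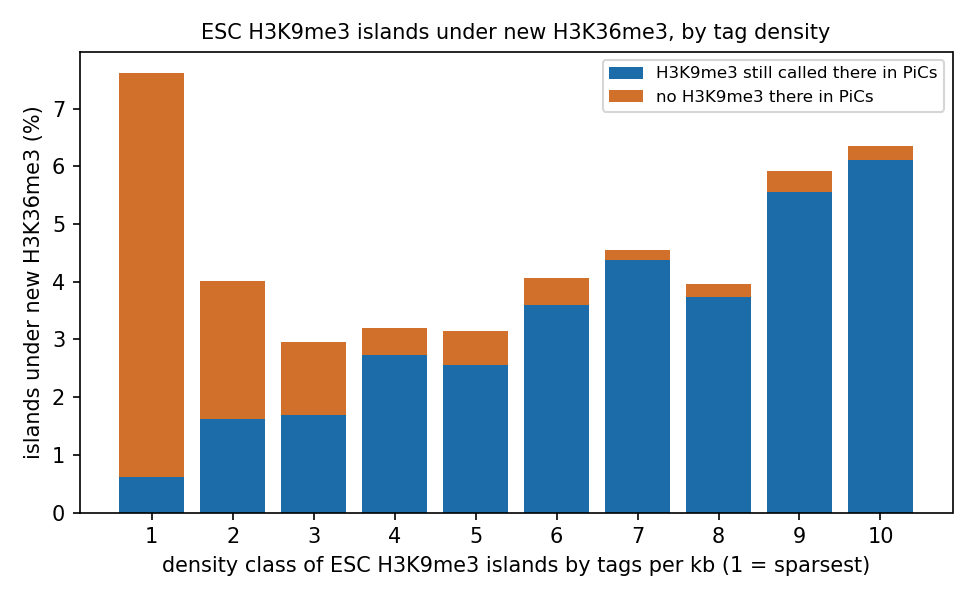
Share of ESC H3K9me3 islands without ESC H3K36me3 that lay under new PiC H3K36me3 (y axis, %), by density class, from the fewest (1) to the most (10) tags per kb (x axis). Blue marks islands under dual-marked and orange islands under H3K36me3-only new islands; the orange part is 7% in density class 1 and 0.247% in density class 10, and an island under both is counted in each.

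Sparse ESC H3K9me3 was in general found less often in PiCs, but it was found less often still under new H3K36me3. In the sparsest density class 26.6% of all ESC H3K9me3 islands free of ESC H3K36me3 overlapped a PiC H3K9me3 island, and of the 100 under new H3K36me3 7 did (7%, interval 2.86 to 13.9). In density class 2 the values were 65% and 40.6% (28.5 to 53.6), and in density class 3 80% and 55.1% (40.2 to 69.3). From density class 4 to density class 10 the value for all islands lay inside the interval of those under new H3K36me3. In the densest class the values were 91.9% and 97.1% (91.6 to 99.4).

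Where H3K9me3 was found in both conditions under new H3K36me3, its islands were wider in PiCs, by a smaller ratio than elsewhere. The 540 ESC H3K9me3 islands under dual-marked islands and shared with PiCs had a median width of 3.4 kb, and the PiC islands they met summed to a median of 4.8 kb. The median ratio of widths was 1.29 (1.24 to 1.38), with 72.6% wider in PiCs, 6.48% of equal width and 20.9% narrower. For the 13421 other shared ESC H3K9me3 islands the ratio was 1.43 (1.42 to 1.45), from a smaller ESC median of 2.4 kb.

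H3K36me3 itself was weak in the 691. They held a median of 42.3 tags per kb (41.4 to 43.3), against 49.2 over all autosomal PiC H3K36me3 islands and 53.3 (52.8 to 53.9) in shared islands. In dual-marked islands this density was 44 (42.5 to 45.9), in H3K36me3-only islands 38.8 (36.5 to 40) and in the other new islands 38 (37.5 to 38.4). The range in the 691 ran from 19.9 to 263.2 tags per kb. Edges of the marks seldom coincided in full. Of the dual-marked islands, 69 (13.6%) had both edges within 200 bp of ESC H3K9me3 edges and 40 (7.89%) of PiC H3K9me3 edges. At least 1 edge matched that closely for 57.6% and 55.4%, and in 12 islands both edges were identical to those of PiC H3K9me3. Among H3K36me3-only islands 8 (4.35%) had both edges and 28.8% at least 1 edge within 200 bp of ESC H3K9me3 edges.

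Among dual-marked islands at least 2 kb wide, the 4 densest in H3K36me3 lay over H3K9me3 islands denser than the list medians in both conditions. An island on chromosome 17 at 13743401 to 13746200 (2.8 kb) held 737 H3K36me3 tags in PiCs, or 263.2 per kb. It lay wholly inside an H3K9me3 island of 8.2 kb with 119.6 tags per kb in ESCs and of 9.8 kb with 163.9 in PiCs, and the nearest ESC H3K36me3 was 194.2 kb away. The next densest, on chromosome 13 at 23260201 to 23262200, held 153.5 tags per kb and was wholly covered by H3K9me3 in both conditions. So was another on the same chromosome at 13952401 to 13955200, with 124.6 tags per kb. The next, on chromosome 3 at 148713801 to 148716800, held 112.0 tags per kb, with ESC H3K9me3 over 73.3% of it and PiC H3K9me3 over all of it. ESC H3K36me3 was 2293.4 kb from this last island.

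The dual-marked islands with the longest overlap were wider than most of the class, which follows from ranking by bases of overlap. The island that shared most sequence with ESC H3K9me3 lay on chromosome 1 at 184107601 to 184131000 (23.4 kb, 982 tags). ESC H3K9me3 covered 17.4 kb of it in 3 islands and PiC H3K9me3 21.0 kb in 2, the longer of them 18.0 kb. This stretch lay 42.6 kb from the nearest other H3K36me3 of either condition. The class had a median of 63.2 kb to ESC H3K36me3 and of 29.4 kb to other PiC H3K36me3. On chromosome 10 at 78962201 to 78984000 (21.8 kb) H3K9me3 covered 12.0 kb in ESCs and 17.8 kb in PiCs. A 10.4 kb island on chromosome 5 at 143888001 to 143898400 was wholly under H3K9me3 in both conditions and was sparse in H3K36me3, at 27.0 tags per kb. In an island of 10.8 kb on chromosome 14 at 52666601 to 52677400 the cover fell from 10.8 kb in ESCs to 8.0 kb in PiCs.

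Of the 4 widest dual-marked islands, the chromosome 1 stretch at 184107601 was the third, and the other 3 had less of their length under H3K9me3. The 85.2 kb island on chromosome 17 at 30766001 to 30851200 (5468 tags) met an H3K9me3 island of 1.2 kb in ESCs and of 2.2 kb in PiCs. The 25.2 kb island on chromosome 8 at 80560001 to 80585200 had 4.0 kb under ESC and 9.8 kb under PiC H3K9me3. A 22.4 kb island on chromosome 1 at 17060001 to 17082400 lay 388.0 kb from ESC H3K36me3, with 1.2 kb of it under ESC H3K9me3 and 5.4 kb under PiC H3K9me3. In each of these 3 islands the H3K9me3 cover was longer in PiCs, and it ranged from 2.58% to 38.9% of the island there. On the same chromosome an 11.4 kb island at 11374201 to 11385600 (99.4 tags per kb) had 5.8 kb under ESC and 8.4 kb under PiC H3K9me3.

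Among H3K36me3-only islands the widest was 74.6 kb long, on chromosome 1 at 94912201 to 94986800, with 5654 tags (75.8 per kb). It lay over an ESC H3K9me3 island of 6.6 kb with 14.7 tags per kb. The next widest were a 27.6 kb island on chromosome 5 at 142957201 to 142984800, only 0.2 kb from ESC H3K36me3, a 26.8 kb island on chromosome 4 at 151735601 to 151762400 and a 24.8 kb island on chromosome 5 at 117781401 to 117806200. The ESC H3K9me3 islands under these 3 held 11.8, 25.6 and 19.5 tags per kb over 7.6, 1.6 and 4.0 kb, in that order. Within the ESC H3K9me3 list, where the median island had 25.6 tags per kb and 2.6 kb, the first and the last were wider and sparser than the median.

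Other H3K36me3-only islands took in several ESC H3K9me3 islands. The one on chromosome 15 at 78613401 to 78632600 (19.2 kb, 62.3 tags per kb) covered 3 of them, 10.0 kb in all, at 15.5 tags per kb, and the nearest PiC H3K9me3 island was 108.6 kb away. On chromosome 10 at 79260401 to 79285000 (24.6 kb) 2 ESC islands gave 9.8 kb of cover, and on chromosome 12 at 113352201 to 113366600 (14.4 kb) 2 islands gave 10.6 kb, the longest overlap of this class. A single ESC H3K9me3 island of 10.2 kb lay whole within the 16.6 kb island on chromosome 15 at 97805201 to 97821800. Among islands of this class at least 2 kb wide, the densest H3K36me3 was on chromosome 15 at 89285601 to 89293400 (88.1 tags per kb, 79.5% under ESC H3K9me3), followed by chromosome 1 at 182865001 to 182872200 (82.4 tags per kb, 5.56%) and chromosome 15 at 76078001 to 76082200 (81.2 tags per kb, 33.3%). On chromosome 1 at 137155801 to 137179000 a 23.2 kb island with 1263 tags overlapped ESC H3K9me3 by 0.6 kb.

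Chromosomes 1 and 15 had the highest shares of new H3K36me3 over ESC H3K9me3. On chromosome 1, 89 of 224 new islands (39.7%, interval 33.3 to 46.5) lay over it, and on chromosome 15, 71 of 202 (35.1%, 28.6 to 42.2). The median autosome had 19%, and the other 17 lay between 13% and 23.4%. The classes behind these shares differed. On chromosome 1, 73 of the 89 (82%, 72.5 to 89.4) were dual-marked. On chromosome 15 the dual-marked numbered 39 of 71 (54.9%, 42.7 to 66.8), and the 32 H3K36me3-only islands were the most of any autosome, ahead of the 16 each on chromosomes 1 and 11. The supply of H3K9me3 differed as well: chromosome 1 had 2047 ESC H3K9me3 islands, of which 4.59% lay under the 691, and chromosome 15 had 1107, of which 7.32% did. The latter was the highest of the autosomes, and chromosome 15 also had the lowest share of all ESC H3K9me3 islands found in PiCs, 59.7%.

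**Figure D5:**
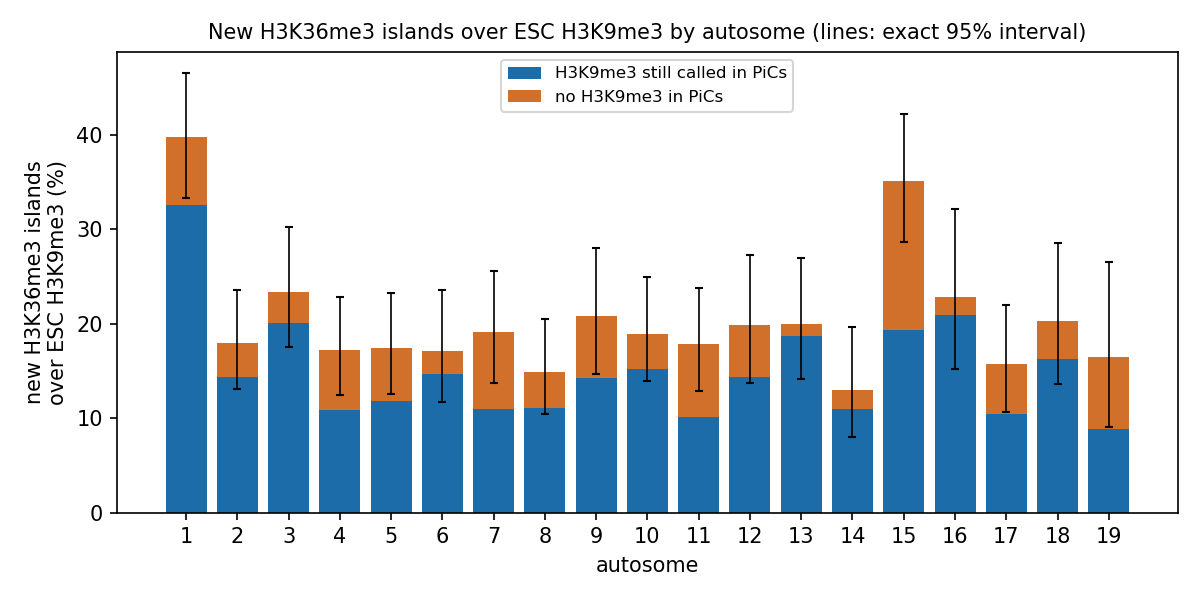
Share of new H3K36me3 islands on each autosome that lay over ESC H3K9me3 (y axis, %), split into dual-marked (blue) and H3K36me3-only islands (orange). Thin lines are exact 95% intervals of the whole bar; chromosomes 1 and 15 stand at 39.7% and 35.1%, and the orange part is tallest on chromosome 15.

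Within chromosomes some of the islands lay close together. The windows and runs named here were chosen after their values were seen. In the first 10 Mb of chromosome 1, 17 of 21 new islands lay over ESC H3K9me3, all dual-marked, and in the next 10 Mb 15 of 26, of which 14 were dual-marked. On chromosome 15 from 70000001 to 80000000 the 10 islands over ESC H3K9me3 were all H3K36me3-only, whereas the 10 in its first 10 Mb were all dual-marked. Runs of 3 or more, with gaps of up to 100 kb, numbered 22 and held 74 of the 691, 51 dual-marked and 23 H3K36me3-only. Over all 691 the dual-marked share was 73.4%. Runs of the other new islands were not counted, so whether the 691 lay closer together than those was not tested. Another PiC H3K36me3 island lay within 50 kb of 67.6% of the 691 and of 90.5% of the other new islands. A run of 5 on chromosome 1 at 7020601 to 7066400 had 73.9% of its island length under ESC and 85.2% under PiC H3K9me3, and 3 of its islands lay on a single ESC H3K9me3 island of 17.2 kb. Another run of 5 followed at 7197601 to 7355600, with 87.6% and 97.1%. In a run of 4 on chromosome 10 at 82891401 to 82918600 every base was under H3K9me3 in both conditions. The run of 4 on chromosome 15 at 78613401 to 78798600 had 44.3% under ESC H3K9me3 and none in PiCs.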

How the data were processed

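Per the submitters' processing notes, SICER was the island caller and mm9 the build; each library has its own list. Its version and thresholds, the aligner, duplicate handling and the role of the input were not given in the sources used here. The deposited whole number per island was taken as a tag count unscaled to library size, so counts and tags per kb describe islands within their own list. Starts and ends lay on a 200 bp grid, and positions are given 1-based. Islands of a list lay at least 800 bp (H3K9me3) or 1200 bp (H3K36me3) apart.

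Overlaps of 1 bp or more, distances and covered bases on autosomes were computed with pandas 2.3.3, numpy 2.4.6 and scipy 1.17.1 under Python 3.11.15. Shares carry exact (Clopper-Pearson) intervals and medians order-statistic intervals, both at 95%. They cover counting error alone, since neither islands nor PCR copies are independent samples. On simulated lists the code, tested beforehand, found 100% of 600 planted islands. The islands, classes and alternatives were chosen with earlier results of these data known. Named regions are, in each class, the 4 widest, the 4 with the most tags, the 4 with the most tags per kb (at least 2 kb wide) and the 4 with the longest overlap with ESC H3K9me3. Gene names and sequences were not used here, since no mm9 reference was at hand.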

Additional observations from a re-analysis of the deposited data

How the results depend on the processing

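No paired analysis was possible because every mark and condition had a single library, and for the same reason none could be left out. With PiC lists cut to the size of the ESC lists, the islands numbered 305 in place of 691, 22.3% of the new islands lay over ESC H3K9me3, 61.3% still had H3K9me3, the median width was 7.4 kb and the median cover by ESC H3K9me3 51%. Requiring at least 50% of each island under ESC H3K9me3 gave 14%, 84.6%, 4 kb and 89.5% for the last 4 of these, and the 50% of ESC H3K9me3 islands with the most tags gave 14.7%, 83.3% and 79.2% for the shares and the cover. With no ESC H3K36me3 within 10 kb, 25.1% lay over ESC H3K9me3 and 77.4% of the islands still had H3K9me3. The first share was 24% with islands joined over 2 kb and 19.4% without chromosome 1, a setting added after the data were seen. The other 36 of 52 recomputed values lay inside the intervals given, or within 1.5 times the count. The input and depth of the libraries are unknown here, so a place without an island may still carry the mark below the caller's threshold.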

Other observations

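The opposite arrangement was rarer. Of 11971 autosomal ESC H3K36me3 islands, 1202 (10%) overlapped no PiC H3K36me3 island, and 38 of these (3.16%, interval 2.25 to 4.31) lay over PiC H3K9me3, while 36 (3%) lay over ESC H3K9me3. New PiC H3K36me3 also met H3K9me3 that was called in PiCs alone. Among the 2639 new islands without ESC H3K9me3, 156 (5.91%, 5.04 to 6.88) overlapped a PiC H3K9me3 island. These 156 had a median width of 4 kb (3.6 to 4.8), a median of 42.9 H3K36me3 tags per kb (40 to 45.3) and a median of 65.2% of their length (55.2 to 72.4) under PiC H3K9me3. Their width and density lay close to those of the dual-marked islands (4.2 kb and 44 tags per kb), but other measures differed. The median cover by PiC H3K9me3 was 100% in dual-marked islands. The median distance to ESC H3K36me3 was 27.4 kb for the 156 and 63.2 kb for dual-marked islands.

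Tag densities of the marks were weakly related across dual-marked islands. Between H3K36me3 and H3K9me3 tags per kb in PiCs Spearman's rho was 0.411 and Pearson's r on the log2 scale 0.516 over 507 islands. Between PiC H3K36me3 and ESC H3K9me3 the values were 0.320 and 0.447. Over the 184 H3K36me3-only islands they were 0.080 and 0.105. Islands of a list share a library, and mappability and base composition are shared by both marks at a site, so these values describe the lists and carry no test.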
